A study of Mus musculus with 4 samples.

Results

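The integrin subunits that lymphocytes are known to use were followed in cultures labelled as CD4+ T cells, from WT mice and from mice with a T-cell deletion of the kinases MEK1 and MEK2. The level of Cd4 mRNA in the Mek1/2-tKO libraries, given below, goes against the cell-type label. Counts of the targeted genes, also given below, cannot decide on the deletion. The subunits followed are 10 genes chosen by symbol, and all 10 were found among the 54752 genes counted. They are 6 alpha subunits (Itga1, Itga2, Itga4, Itgae, Itgal and Itgav) and 4 beta subunits (Itgb1, Itgb2, Itgb3 and Itgb7). Naïve CD4+ T cells from mouse spleen were activated through CD3 and CD28 and polarized toward T follicular helper (Tfh) cells with IL-6 while TGF-β, IL-4, IFN-γ and IL-2 were blocked by antibodies, and viable cells were sorted for RNA-seq on day 3. There were 2 libraries of WT cells and 2 libraries of Mek1/2-tKO cells, the latter from Cd4-Cre+ mice with floxed Map2k1 and Map2k2 alleles (Map2k1 fl/fl Map2k2 fl/fl) on a C57BL/6 background. Both genotypes received the same culture. Cd4-Cre acts in the T lineage from the thymus on, so cells of other lineages, if present, would keep both kinases. Which cells the cultures held was not tested. The Cre and flox alleles of the WT mice, the age of the mice and whether the 2 libraries of a genotype came from separate animals are not given in the sources used here, so that the p-values measure only the spread between these libraries, which may be technical.

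An integrin is a pair of one alpha and one beta chain in the plasma membrane. On resting lymphocytes it is bent and binds weakly, and signals from the antigen receptor or from chemokine receptors, passed on by the small GTPase Rap1, talin and kindlin, open it so that it holds ligands on other cells or in the matrix. Itgal pairs with Itgb2 to form LFA-1, which binds ICAM proteins at the contact between T cell and antigen-presenting cell. Itga4 pairs with Itgb1 or with Itgb7, and these receptors bind VCAM1 and the gut addressin MAdCAM1. Itgae pairs with Itgb7 and binds E-cadherin, Itga1 and Itga2 pair with Itgb1 and bind collagens, and Itgav pairs with Itgb1 or Itgb3 and binds proteins such as vitronectin and osteopontin.

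The 4 libraries held 16330802 to 18931090 counts, with 1.56 to 2.24% in mitochondrial genes, and 14330 genes had enough counts to be tested. Levels are CPM, the share of a gene in the counts of a library scaled by edgeR's TMM factors and to a common total. A gene counts as called where edgeR's quasi-likelihood test gave a fold change of 1.5 or more with an adjusted p below 0.05, and fold changes are Mek1/2-tKO over WT. The targeted genes were read first. Map2k1 was at 182 and 187 CPM in WT and at 98.0 and 105 CPM in Mek1/2-tKO libraries, and Map2k2 was at 155 and 165 CPM against 172 and 182 CPM. Map2k1 was therefore lower in both Mek1/2-tKO libraries and Map2k2 was not, and a count over the whole gene does not separate transcripts with and without the floxed exons. Cd4 mRNA, the marker of the labelled cell type, fell from 297 and 289 CPM to 18.8 and 25.1 CPM (log2 fold change -3.73, standard error 0.12). Summed over 12 T-cell identity genes the level was 2848 to 2850 CPM in WT and 1721 to 1874 CPM in Mek1/2-tKO. Of the 12, 7 were called lower, against 16.4% of all genes, and 5 were not called. Among these 5, Cd3d, Trbc1 and Trbc2 had log2 fold changes of 0.20, 0.16 and -0.03. Lck was lower by the adjusted p alone (log2 fold change -0.54, edgeR adjusted p = 2.39e-05). Cd3g was higher by the adjusted p alone (log2 fold change 0.24, edgeR adjusted p = 0.0254). Cd247, among the 7 called lower, shares 60.3% of its exon bases with other genes, mostly on the other strand, so that its count is uncertain. Markers of other cells were higher in the Mek1/2-tKO libraries. The summed level of 12 B-lineage genes was 1557 to 1581 CPM in WT and 8767 to 8916 CPM in Mek1/2-tKO (12 of 12 called higher), that of 9 NK-cell genes was 130 to 132 and 791 to 860 CPM (9 of 9), and that of 6 CD8 and gamma-delta T-cell genes was 62.8 to 73.5 and 331 to 373 CPM (6 of 6). For 10 myeloid genes it was 5.08 to 5.60 and 27.2 to 32.7 CPM (8 of the 8 tested). For 8 platelet genes it was 1.56 to 3.75 and 8.78 to 10.1 CPM (2 of the 2 tested). Gp6 was at 0 in every library, as was Gp1bb, which shares 92.9% of its exon bases with other genes. In the NK-cell list, Nkg7 (436 and 405 CPM) and Prf1 (197 and 178 CPM) had the highest levels in Mek1/2-tKO. Ncr1 was at 11.5 and 9.85 CPM there, and Klrb1c at 5.55 and 5.70 CPM. Which cells carried these genes was not tested. Lyz2, Adgre1, S100a8, S100a9, Fcgr3, Itgax and Pf4 passed the filter on low counts only through their Mek1/2-tKO libraries. Sox13 and Tcrg-C1 of the CD8 and gamma-delta list did so too. The counts of called genes in these lists are therefore a description and support nothing further. Over all genes tested, 19.3% were called higher. By the summed levels, both Mek1/2-tKO libraries stood apart from their cell-type label in the same way, and leaving out either of them keeps a library with these markers. B cells, NK cells and CD8 T cells carry several of the same integrins. The part of these cells in the differences below was not tested, and fewer cells of a type and less RNA per cell cannot be told apart in such bulk samples.

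Of the 10 subunits, 9 were tested. By edgeR 4 of them, Itgb3, Itga2, Itgav and Itgal, were called lower in Mek1/2-tKO cells and 0 were called higher (1 at an unadjusted p under 0.05). DESeq2 called 3 lower, without Itga2, and 0 higher. Over all genes tested 35.8% were called, 19.3% higher and 16.4% lower. With the adjusted p alone, Itga4 was higher, and Itgb2 and Itgb7 joined the 4 lower subunits, against 27.8% of all genes higher and 27.2% lower by that rule. The median log2 fold change of the 9 subunits was -0.48, and that of all genes tested was 0.015. Itga2 and Itgae passed the filter on low counts through their WT libraries, so these counts and the median describe the subunits and support nothing further. With 2 libraries against 2 an exact permutation test has a smallest two-sided p of 0.333, and the adjusted p values depend on the variance fitted over all genes.

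**Figure D1:**
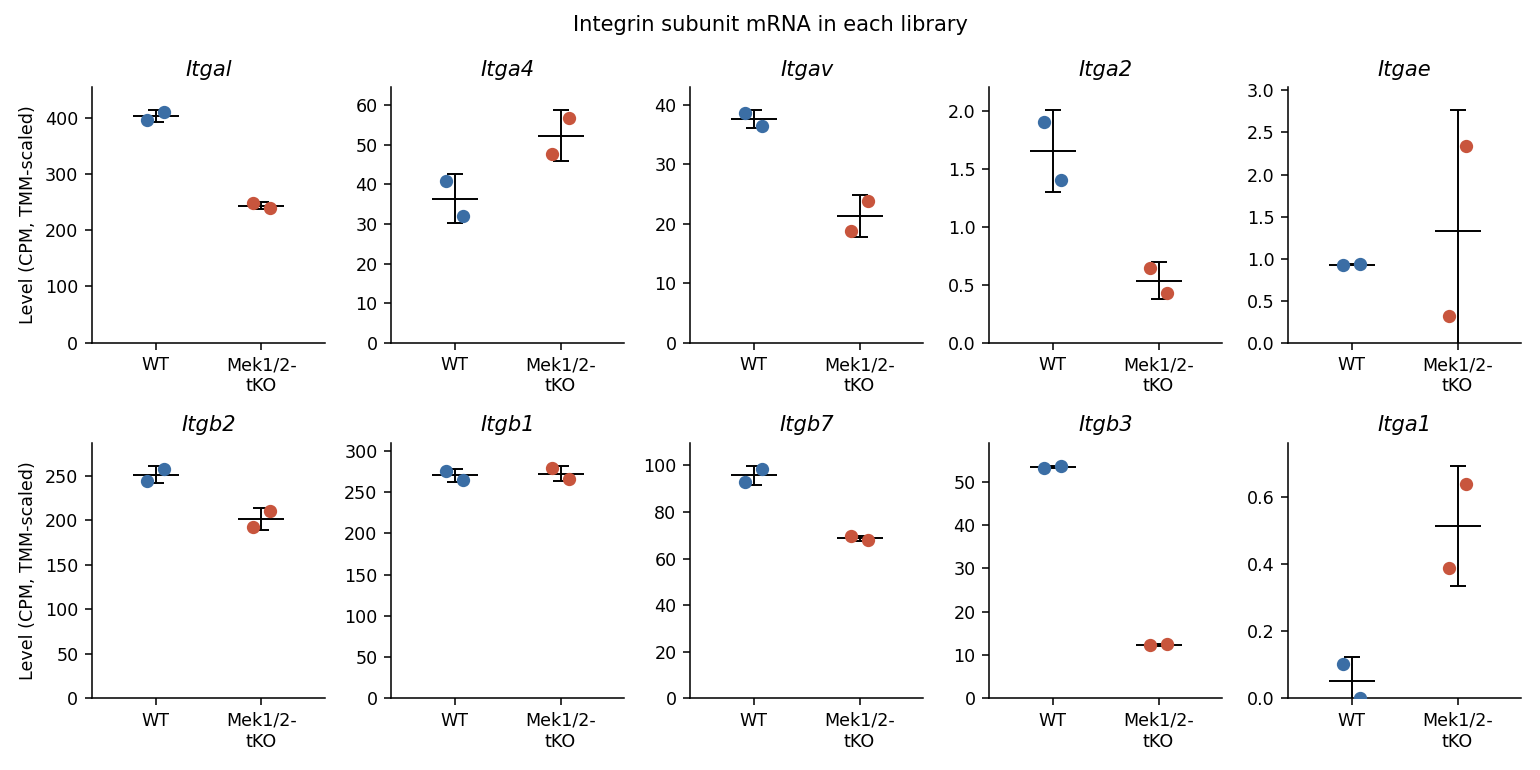
Level of each of the 10 subunits in each library (CPM, TMM-scaled, linear axes from 0 that differ between panels), with WT in blue, Mek1/2-tKO in red, a horizontal line at the mean and bars of 1 SD (n = 2, the lower end of a bar under 0 not drawn). Itgb3 lies at 53.2 and 53.5 CPM in WT and at 12.2 and 12.5 CPM in Mek1/2-tKO, while the points of Itgb1 and Itgae overlap between genotypes.

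Levels of different genes are comparable only per length, so CPM were divided by the exon length of each gene in kilobases. In WT cells the beta chains Itgb2 (82.2 ± 3.19 CPM per kb, SD, n = 2) and Itgb1 (66.2 ± 1.93) stood at the top, followed by Itgal (61.3 ± 1.56) and Itgb7 (34.5 ± 1.46). Itgb3 (9.04 ± 0.0370), Itgav (3.50 ± 0.140) and Itga4 (2.60 ± 0.445 CPM per kb) came next. Each of these 7 was separated from its neighbours beyond the spread of the libraries. Itga2 (0.231 ± 0.0494) and Itgae (0.203 ± 0.00152) overlapped, and Itga1 was at 0 and 0.00552 CPM per kb. The order differed in Mek1/2-tKO cells. Itgb1 (66.7 ± 2.28) and Itgb2 (66.0 ± 4.06 CPM per kb) could no longer be ordered. Itga4 (3.74 ± 0.456) stood above Itgb3 (2.09 ± 0.0367) and Itgav (1.98 ± 0.330), which overlapped each other. Itgae (0.291 ± 0.312) overlapped Itga2 (0.0751 ± 0.0218).

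The chains of LFA-1 were both lower in Mek1/2-tKO cells, the alpha chain past both thresholds and the beta chain by the adjusted p alone. Itgal (ENSMUSG00000030830.18, GRCm38 chromosome 7, 127296260 to 127335138, 32 exon blocks) encodes the chain that holds the ICAM-binding domain. It had 395 and 409.6 CPM in the WT libraries and 248 and 239 CPM in the Mek1/2-tKO libraries. Both Mek1/2-tKO values lay far below both WT values, and the log2 fold change was -0.73 (standard error 0.07, edgeR adjusted p = 2.07e-06), a 1.65-fold lower level. Itgb2 (ENSMUSG00000000290.13, chromosome 10, 77530252 to 77565708) encodes the beta chain shared by LFA-1 and the leukocyte integrins of Itgam, Itgax and Itgad. Its levels were 244 and 258 CPM in WT and 193 and 210.1 CPM in Mek1/2-tKO. The groups did not overlap, but the log2 fold change of -0.32 (standard error 0.08, edgeR adjusted p = 0.00357) stayed under a fold change of 1.5. The ratio of Itgal to Itgb2 within a library, which needs no scaling between libraries, was 0.752 and 0.738 in WT and 0.598 and 0.528 in Mek1/2-tKO, so that the alpha chain was lower also relative to its own partner.

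Itga4 was the one subunit whose level was higher in Mek1/2-tKO cells with a small adjusted p, but its fold change did not reach 1.5. Itga4 (ENSMUSG00000027009.18, chromosome 2, 79255426 to 79333123) encodes the chain for VCAM1 and MAdCAM1. It was at 40.7 and 32.0 CPM in WT and at 47.8 and 56.8 CPM in Mek1/2-tKO, and the log2 fold change was 0.53 (standard error 0.13, edgeR adjusted p = 0.00432). The 4 values did not overlap between genotypes, although the WT libraries differed from each other by more than they did for Itgal. It passed both thresholds at 0.71 when WT replicate 1 was left out and at 0.64 when Mek1/2-tKO replicate 1 was left out, while it was 0.36 with an edgeR adjusted p of 0.0746 when WT replicate 2 was left out. Of the exon bases of Itga4, 8.04% are shared with Cerkl on the other strand. Cerkl had 23 to 37 counts in a library against 616 to 1067 for Itga4, and the strand setting of the counting is not given in the sources used here.

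Neither beta partner of Itga4 was higher in Mek1/2-tKO cells. Itgb7 (ENSMUSG00000001281.10, chromosome 15, 102215995 to 102231944) is the beta chain of the gut-homing receptors. It had 92.8 and 98.5 CPM in WT and 69.6 and 67.9 CPM in Mek1/2-tKO, a log2 fold change of -0.48 (standard error 0.09, edgeR adjusted p = 0.000569). Both Mek1/2-tKO libraries were lower, again with a fold change under 1.5. Itgb1 (ENSMUSG00000025809.15, chromosome 8, 128685654 to 128733200) is the beta chain with the most partners. Its levels of 276 and 265 CPM in WT and 279 and 266 CPM in Mek1/2-tKO overlapped. The log2 fold change was 0.011 with a 95% interval of -0.15 to 0.17 (standard error 0.07, edgeR adjusted p = 0.913), and its sign turned with scaling by library size alone, without the filter and with some libraries left out. The ratio of Itga4 to Itgb7 was 0.0870 and 0.0642 in WT and 0.136 and 0.166 in Mek1/2-tKO, 2.01 times higher on average. The ratio of Itga4 to Itgb1 was 0.0431 and 0.0353 against 0.05005 and 0.0624. In both ratios the genotypes did not overlap.

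Itgb3 had the largest fold change of the 9 tested subunits, and its alpha partner Itgav was lower as well. Itgb3 (ENSMUSG00000020689.4, chromosome 11, 104608000 to 104670476) is the beta chain of the vitronectin receptor and, with Itga2b, of the platelet fibrinogen receptor. It had 53.2 and 53.5 CPM in WT and 12.2 and 12.5 CPM in Mek1/2-tKO libraries, from 1037, 1032, 189 and 235 counts. The replicates lay almost on each other and the genotypes far apart. The log2 fold change was -2.11 (standard error 0.12, 95% interval -2.37 to -1.84, edgeR adjusted p = 1.04e-08), a 4.31-fold lower level. Of the platelet marker genes, Pf4 and Itga2b were higher in the same libraries, and the part of such cells was not tested. Itgav (ENSMUSG00000027087.11, chromosome 2, 83724397 to 83806916) had 38.6 and 36.5 CPM in WT and 18.8 and 23.8 CPM in Mek1/2-tKO, a log2 fold change of -0.81 (standard error 0.14, edgeR adjusted p = 0.000212). Its groups did not overlap. Gm13684, which had at most 2 counts in a library, overlaps 5.90% of its exon bases. The beta chain was lower by more than the alpha chain. The ratio of Itgav to Itgb3 was 0.399 and 0.375 in WT and 0.846 and 1.04 in Mek1/2-tKO, whereas that of Itgav to Itgb1 was 0.0532 and 0.0524 in WT and 0.0256 and 0.0340 in Mek1/2-tKO. Itgal, Itgav and Itgb3 were called lower in all 11 alternatives that kept these thresholds, and at a fold change of at least 2 Itgb3 alone of the 3 was.

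**Figure D2:**
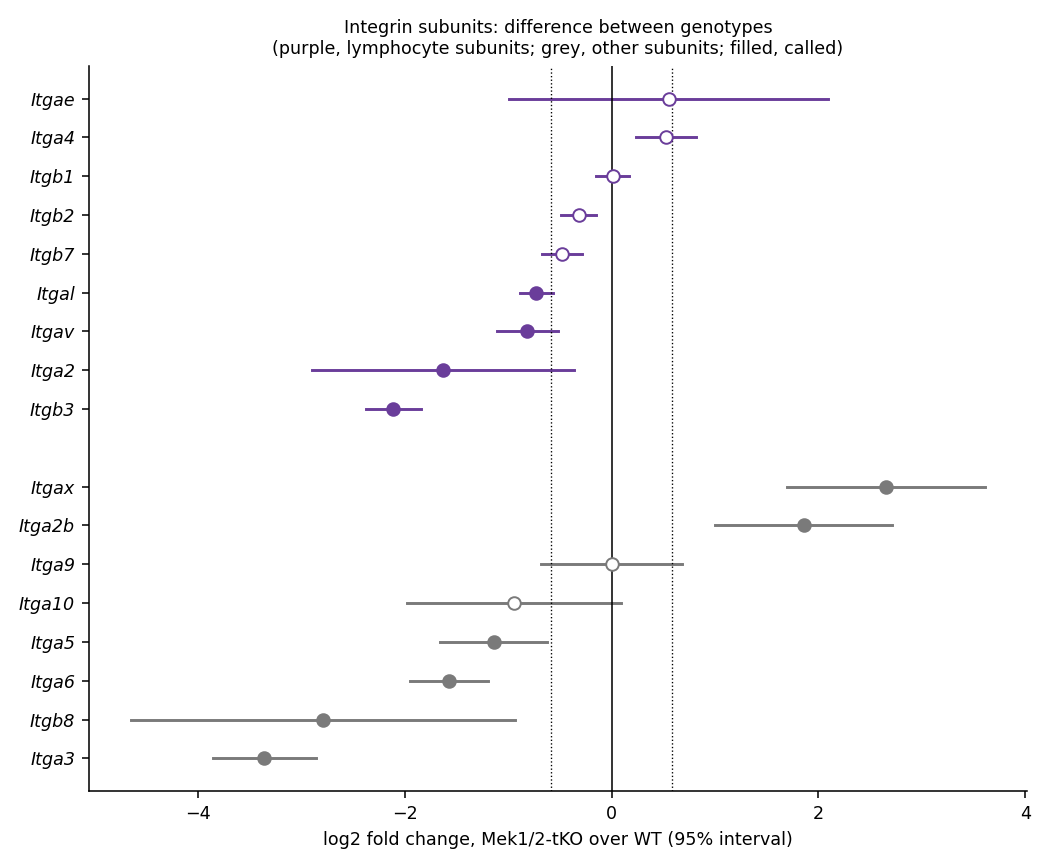
log2 fold change of each tested subunit (horizontal axis, Mek1/2-tKO over WT) with its 95% interval from edgeR, for the lymphocyte subunits in purple and the other integrin subunits in grey, with filled points called, open points not called, dotted lines at a fold change of 1.5 in either direction and Itga7 left out because it had no count in Mek1/2-tKO. Itgb3 at -2.11 has a short interval, and that of Itgae runs from -0.99 to 2.09 across 0.

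The collagen and E-cadherin receptors were near the limit of these libraries. Itga2 (ENSMUSG00000015533.9, chromosome 13, 114833081 to 114932100) had 37 and 27 counts in WT and 10 and 8 counts in Mek1/2-tKO, or 1.90, 1.40, 0.646 and 0.426 CPM. Its log2 fold change of -1.63 (standard error 0.59, edgeR adjusted p = 0.0311) was called, but DESeq2 gave an adjusted p of 0.0735 and the call was lost without any 1 of the 4 libraries, with adjusted p of 0.0537 to 0.232 in edgeR. Itgae (ENSMUSG00000005947.11, chromosome 11, 73090583 to 73147446) had 18 counts in each WT library and 5 and 44 counts in the Mek1/2-tKO libraries. One Mek1/2-tKO library was thus below and the other above both WT libraries. The log2 fold change was 0.55 (standard error 0.72, edgeR adjusted p = 0.538) and became -1.51 without Mek1/2-tKO replicate 2. Itga1 (ENSMUSG00000042284.10, chromosome 13, 114953096 to 115101964) had 2 and 0 counts in WT and 6 and 12 counts in Mek1/2-tKO and was not tested. Summed per genotype and scaled for depth, its ratio was 10.2 with a 95% interval of 2.44 to 90.5 from counting error only, and fitted without the filter it gave an edgeR adjusted p of 0.128.

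As shares of the summed level per length, Itgal took 90.4% ± 1.07 of the alpha subunits in WT cells and 85.8% ± 2.48 in Mek1/2-tKO cells (SD, n = 2 each). Itga4 took 3.84% ± 0.709 and 8.67% ± 1.04, and Itgav took 5.16% ± 0.277 and 4.60% ± 0.753. Itga4 was below Itgav in each WT library and above it in each Mek1/2-tKO library. Among the beta subunits, Itgb1 took 34.5% ± 1.50 in WT and 41.8% ± 1.79 in Mek1/2-tKO, Itgb2 took 42.8% ± 1.05 and 41.3% ± 2.18, Itgb7 took 18.0% ± 0.502 and 15.5% ± 0.402, and Itgb3 took 4.71% ± 0.0482 and 1.31% ± 0.0116. The share of Itgb2 overlapped between genotypes and those of the other 3 beta subunits did not. Summed, the alpha subunits were at 67.1 and 68.4 CPM per kb in WT and at 43.1 and 43.2 in Mek1/2-tKO, and the beta subunits were at 190.1 and 194 against 159 and 161. These shares and ratios are given without a test.

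**Figure D3:**
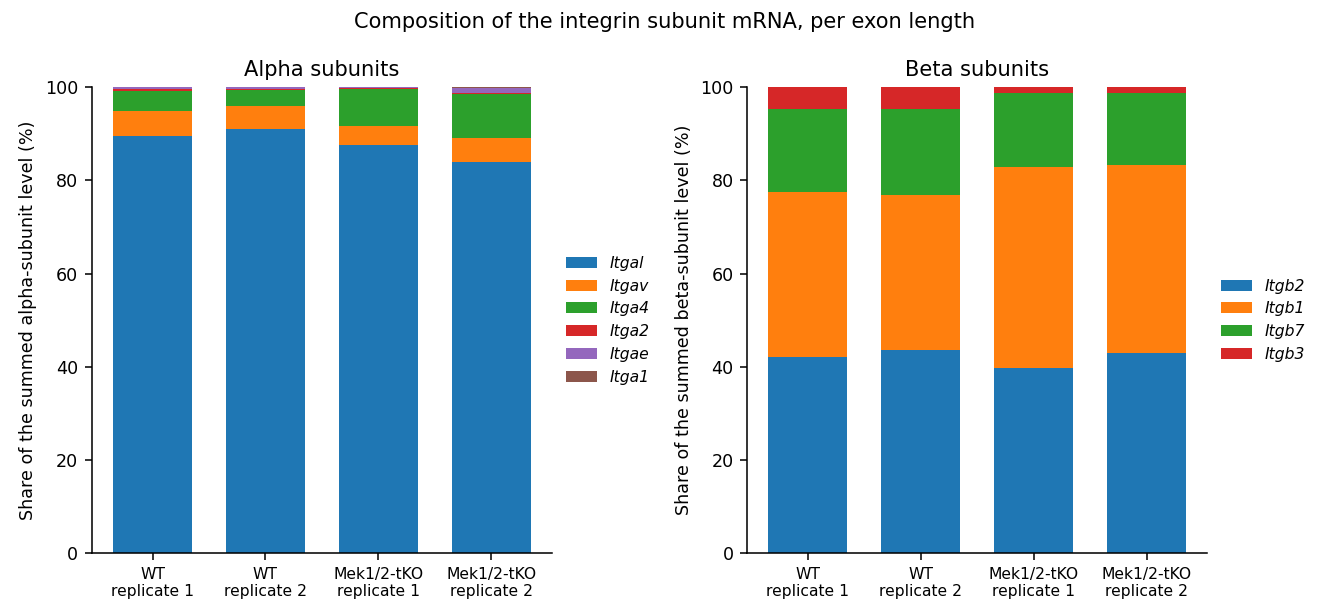
Share of each subunit in the summed level of the alpha (left) or beta (right) lymphocyte subunits in each library (stacked bars, percent of CPM per kb of exon). Itgal fills most of each alpha bar, Itga4 is 3.84% on average in WT and 8.67% in Mek1/2-tKO, and Itgb3 is 4.71% and 1.31%.

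**Figure D4:**
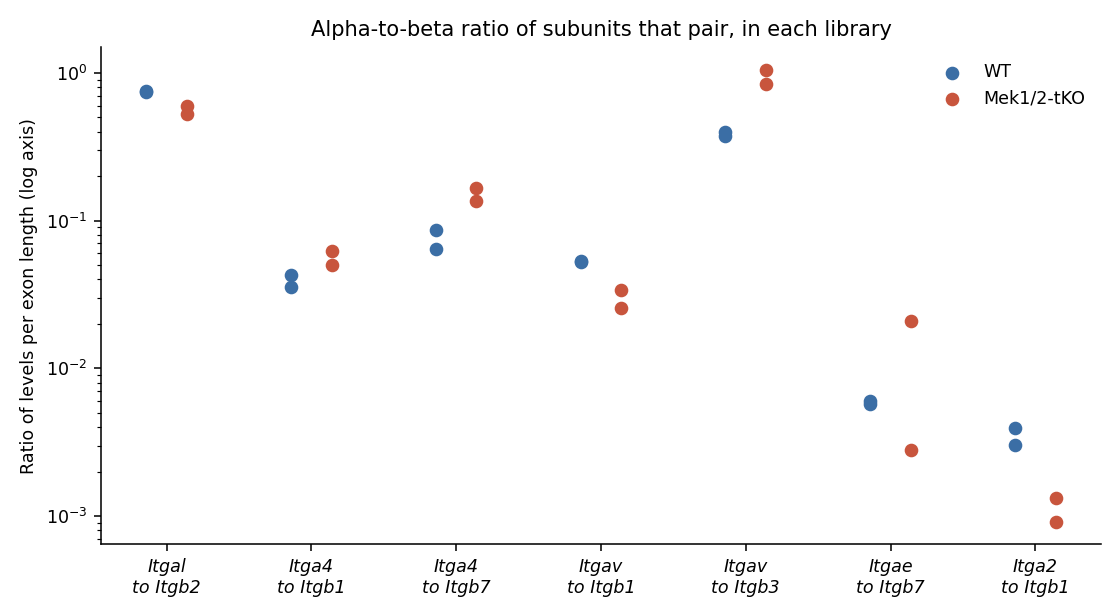
Ratio of the level of an alpha subunit to that of a beta subunit it pairs with, per exon length and within each library (log axis), for WT in blue and Mek1/2-tKO in red. The ratio of Itgav to Itgb3 is 0.387 on average in WT and 0.945 in Mek1/2-tKO and that of Itgal to Itgb2 is 0.745 and 0.563, while the points of Itgae to Itgb7 overlap.

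RefSeq promoter sequences of build GRCm38.p6 matched 6 of the 10 subunits by symbol. They are shown for Itgav (lower in Mek1/2-tKO), Itga4 (higher by the adjusted p alone) and Itgb1 (no difference detected), as the 250 bases before the annotated start, 5′ to 3′ on the strand of the gene, which is the plus strand for all 3. Capitals mark matches, on either strand, to 5 short motifs, namely an ETS core (CCGGAA), a PU.1-like ETS core (GAGGAA), a RUNX core (TGTGGT), the AP-1 site (TGANTCA) and a GC box (GGGCGG). No matches overlapped.
Itgav, chr2:83724147-83724396: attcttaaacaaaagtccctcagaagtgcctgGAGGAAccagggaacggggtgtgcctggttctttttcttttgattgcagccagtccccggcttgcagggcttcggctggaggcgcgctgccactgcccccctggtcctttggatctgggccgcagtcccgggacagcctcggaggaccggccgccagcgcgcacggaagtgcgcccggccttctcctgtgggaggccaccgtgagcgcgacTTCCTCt
Itga4, chr2:79255176-79255425: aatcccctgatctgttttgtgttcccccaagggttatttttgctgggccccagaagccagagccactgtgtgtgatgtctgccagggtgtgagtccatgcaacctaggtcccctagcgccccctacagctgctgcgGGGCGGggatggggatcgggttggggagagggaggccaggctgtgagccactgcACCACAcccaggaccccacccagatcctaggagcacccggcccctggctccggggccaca
Itgb1, chr8:128685404-128685653: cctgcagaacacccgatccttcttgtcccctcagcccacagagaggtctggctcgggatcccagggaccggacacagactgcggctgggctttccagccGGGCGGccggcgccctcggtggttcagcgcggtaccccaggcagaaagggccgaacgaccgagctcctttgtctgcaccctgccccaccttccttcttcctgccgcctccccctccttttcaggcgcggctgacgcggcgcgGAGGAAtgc
The Itgav window, whose gene was lower, held the PU.1-like core at 218 and 7 bases before the start. The Itga4 window held a GC box at 114 bases and a RUNX core at 60 bases before the start, and the Itgb1 window held a GC box at 151 bases and a PU.1-like core at 9 bases. The 3 windows had 64.4%, 64.0% and 68.0% G and C. The windows of Itga1, Itga2 and Itgb7 held none of the 5 motifs. Among the 32851 promoter windows of the same length, 12.0% held the ETS core, 23.3% the PU.1-like core, 14.05% the RUNX core, 6.75% the AP-1 site and 32.7% the GC box. Such matches describe the letters of the window and are not evidence of binding.

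The 16 integrin subunits outside the 10 were read in the same way. In WT cells, Itga6 and Itga3 averaged 3.67 and 3.59 CPM per kb, beside 3.50 for Itgav. Of these 16 subunits 9 were tested, 2 were called higher and 5 lower, with a median log2 fold change of -1.14, also with Itga7 at its bound, beside 35.8% of all genes called. Itga7 and Itgb8 passed the filter on low counts through their WT libraries and Itgax through its Mek1/2-tKO libraries, so this count and median are a description. Itga3, Itga5, Itga6 and Itga7 are partners of Itgb1 that bind laminins, or fibronectin in the case of Itga5. Itga6 fell from 38.7 and 27.4 CPM to 10.5 and 11.7 CPM (log2 fold change -1.57, standard error 0.18), and Itga3 fell from 18.9 and 22.1 CPM to 2.39 and 1.65 CPM (log2 fold change -3.36, standard error 0.23). Itga5 fell from 9.34 and 9.91 CPM to 5.10 and 3.67 CPM (log2 fold change -1.14, standard error 0.24). Itga7 had 102 and 90 counts in WT and none in Mek1/2-tKO, at least 25.6-fold lower against a floor of 3 counts per library. These 4 chains pair with Itgb1, in which no difference was detected. Itgb8, a partner of Itgav that activates TGF-β, had 32 and 34 counts in WT and 8 and 0 counts in Mek1/2-tKO (log2 fold change -2.79, standard error 0.86, edgeR adjusted p = 0.0140), and without Mek1/2-tKO replicate 2 it was -1.71 and lost the call. Itga10, a collagen receptor, had 2.21 and 2.23 CPM in WT and 0.775 and 1.49 CPM in Mek1/2-tKO, with a log2 fold change of -0.95 that did not pass (edgeR adjusted p = 0.111). It was called without Mek1/2-tKO replicate 2, with a log2 fold change of -1.52. Of its exon bases, 33.5% are shared with Gm42957, which had no count. The 2 subunits that rose are also on the marker lists of other cells. Itgax, a dendritic-cell and myeloid chain, rose from 0.513 and 0.726 CPM to 3.88 and 3.99 CPM (log2 fold change 2.65, standard error 0.44), and Itga2b, the platelet chain, rose from 1.54 and 0.882 CPM to 4.00 and 4.79 CPM (log2 fold change 1.86, standard error 0.40). Itga8, Itgad and Itgb6 had no count in any library.

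Most genes for integrin ligands had too few counts to be tested. Of 24 ligand genes 7 were tested, 2 were called higher and 0 lower by edgeR (1 lower at an unadjusted p under 0.05, 0 called lower by DESeq2). The called genes were 28.6% of those tested, against 35.8% of all genes. Of the 24 ligand genes, 9 had no count in any library. One of the 9 is Icam4, whose exon bases are 100% shared with Gm47079 on the other strand, so that its count is uncertain. Spp1 encodes osteopontin, a ligand of Itgav and Itga4 receptors. It rose from 3.03 and 3.42 CPM to 78.0 and 74.7 CPM (log2 fold change 4.56, standard error 0.14, edgeR adjusted p = 2.23e-11). Among the ligands of LFA-1, Icam2 rose from 29.9 and 26.7 CPM to 70.2 and 71.7 CPM (log2 fold change 1.33, standard error 0.11), and Icam1, named after its values were seen, was at 90.2 and 101 CPM in WT and 129 and 127 CPM in Mek1/2-tKO (log2 fold change 0.42, standard error 0.09), under a fold change of 1.5. Icam2 thus was higher in the libraries in which Itgal was lower.

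Inside-out activation is the path from the antigen receptor to integrin opening. Of its 17 tested genes 2 were called higher and 4 lower, with a median log2 fold change of -0.31, a share of 35.3% called against 35.8% of all genes. Rasgrp2, an exchange factor that loads Rap1, rose from 9.65 and 10.7 CPM to 57.0 and 70.8 CPM (log2 fold change 2.65, standard error 0.14), and the adaptor Skap2 rose from 16.2 and 15.9 CPM to 45.3 and 39.7 CPM (log2 fold change 1.40, standard error 0.13). Fyb, the adaptor ADAP of the T-cell receptor, fell from 53.2 and 62.1 CPM to 23.7 and 25.3 CPM (log2 fold change -1.23, standard error 0.12), and Rapgef6, another Rap exchange factor, fell from 99.7 and 93.1 CPM to 50.1 and 55.5 CPM (log2 fold change -0.87, standard error 0.10). Exchange factors of Rap1 were therefore found on both sides. Another 3 genes of this list were chosen after their values were seen. They were lower by the adjusted p alone and did not reach a fold change of 1.5. Talin (Tln1) had a log2 fold change of -0.54, kindlin-3 (Fermt3) of -0.31 and RIAM (Apbb1ip) of -0.51 (standard errors 0.09, 0.07 and 0.11). Tln1 was called with scaling by library size alone, without WT replicate 1 and without Mek1/2-tKO replicate 2, at -0.62 to -0.65, and Apbb1ip was called with scaling by library size alone, at -0.59.

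Among 10 brakes on integrin activation, all tested, 4 were called higher and 2 lower, with a median log2 fold change of 0.50, against 19.3% of all genes called higher and 16.4% lower. Rasa3, which switches Rap1 off, rose from 22.4 and 26.7 CPM to 91.1 and 106 CPM (log2 fold change 2.01, standard error 0.12). Sharpin, which binds alpha tails and holds the integrin inactive, rose from 50.3 and 50.0 CPM to 108 and 111 CPM (log2 fold change 1.12, standard error 0.09). Itgb1bp1, named after its values were seen, binds the tail of Itgb1 and had 26.7 and 27.4 CPM in WT and 47.2 and 36.7 CPM in Mek1/2-tKO (log2 fold change 0.63, standard error 0.13). It lost the call with scaling by library size alone, at 0.54, and without Mek1/2-tKO replicate 1, at 0.44, and it shares 16.9% of its exon bases with Asap2 and Cpsf3. The 2 brakes that fell were Sipa1l1, a Rap GTPase-activating protein, from 45.2 and 51.7 CPM to 20.2 and 23.3 CPM (log2 fold change -1.15, standard error 0.13), and filamin A (Flna), a competitor of talin on the beta tail, from 361 and 386 CPM to 204 and 253 CPM (log2 fold change -0.71, standard error 0.09). Without Mek1/2-tKO replicate 1 Flna was at -0.56 and lost the call.

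Of 16 tested genes of the adhesion complex and of outside-in signalling, which tie the engaged integrin to actin, 1 was called higher and 6 lower, with a median log2 fold change of -0.41. The 7 called were 43.8% of the genes tested, near the 35.8% of all genes. Bcar1, among the 6 lower, passed the filter on low counts only through its WT libraries, so this count and median are a description. Actn1, which crosslinks actin at the complex, fell from 74.5 and 80.6 CPM to 30.8 and 28.2 CPM (log2 fold change -1.39, standard error 0.11), and Tns1, a tensin that binds the beta tail, fell from 19.3 and 18.1 CPM to 10.1 and 11.7 CPM (log2 fold change -0.78, standard error 0.17). Tetraspanins and other lateral partners hold integrins in membrane clusters. Of 12 genes, all tested, 3 were called higher and 0 lower by edgeR (3 lower at an unadjusted p under 0.05, 0 called lower by DESeq2). The called genes were 25.0% of those tested, against 35.8% of all genes, and the median log2 fold change was 0.22. Cd63, among the 3, passed the filter on low counts only through its Mek1/2-tKO libraries, so this count and median are a description. Cd37, a tetraspanin known from B cells, rose from 127 and 128 CPM to 510.3 and 546 CPM (log2 fold change 2.05, standard error 0.08), beside the higher B-lineage markers given above. Thy1, a surface protein of mouse T cells, rose from 561 and 574 CPM to 1021 and 998 CPM (log2 fold change 0.83, standard error 0.07), although 7 of the 12 T-cell identity genes were lower.

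**Figure D5:**
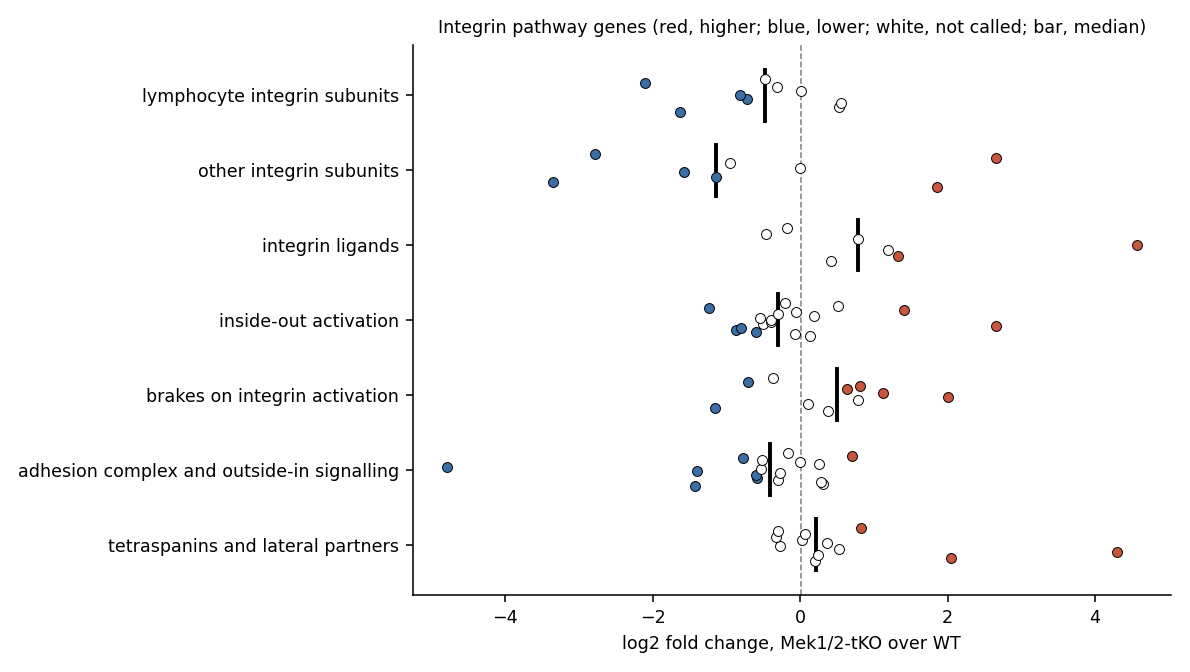
log2 fold change (horizontal axis, Mek1/2-tKO over WT) of each tested gene of the lymphocyte integrin subunits, the other subunits and 5 lists of integrin pathway genes, with genes called higher in red, lower in blue, not called in white, a black bar at the median and Itga7 left out of the second row, whose bar is the median with it. The lymphocyte subunits have their median at -0.48 with no red point, the adhesion complex at -0.41, and the brakes at 0.50.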

How the data were processed

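RNA-seq of 2 WT and 2 Mek1/2-tKO libraries of Tfh-polarized CD4+ T cells was used. The authors trimmed reads with Trimmomatic 0.36, mapped them to GRCm38, counted uniquely mapped reads per gene with featureCounts (Subread 1.5.1, per the labels) and deposited raw counts without normalization. The annotation release and the strand setting are not given in the sources used here. A stranded kit was used. For a gene with no count the limit is 3 counts (0.154 to 0.194 CPM in these libraries), for counting error only.

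Counts were fitted with edgeR 4.0.16 (R 4.3.3, filterByExpr, TMM, robust quasi-likelihood test, Benjamini-Hochberg over the 14330 genes tested), without a replicate block. The fit was also run on simulated counts. A criterion for recovering changed genes was replaced there after its result was seen, so that run is not used as support. Standard errors are the log2 fold change divided by the square root of F. The alternatives were a replicate block, each library left out in turn, no filter, a minimum of 10 counts in every library, scaling by library size alone or by the size factors of DESeq2, edgeR's likelihood-ratio test, DESeq2 1.42.0, the adjusted p alone and a fold change of 2. Symbols matched 54723 of 54752 identifiers. Exon length and overlap come from the coordinates in the deposited files.

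Other subunits were named where called or at a mean of at least 1 CPM, and of each further list up to 2 called genes per direction of largest fold change, if their average log2 CPM was 3 or more. Members and lists were chosen with earlier results of these data known. Of the marker symbols, Trgc1 and Trgc2 were not found. Python 3.11.15, pandas 2.3.3, scipy 1.17.1 and matplotlib 3.10.9 were used.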

Additional observations from a re-analysis of the deposited data

How the results depend on the processing

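Of the 97 values that the alternatives gave for the log2 fold changes of the tested subunits, 84 kept their direction and their side of the thresholds. The count of subunits called higher was 0, and 1 by the adjusted p alone and in the range of 0 to 1 with each library left out, where Itga4 was called without WT replicate 1 or Mek1/2-tKO replicate 1. The count called in either direction was 4, fell to 3 with DESeq2, with 10 counts in every library and without WT replicate 2 or Mek1/2-tKO replicate 2, became 7 by the adjusted p alone, and 2 at a fold change of at least 2, both of them lower. Itgb1 turned to -0.075 with library size alone and to -0.00084 without the filter, and ranged from -0.024 to 0.038 with each library left out, and Itgae ranged from -1.51 to 1.33. Itga2 was not tested at 10 counts in every library, nor was Itgae.

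Libraries with the same replicate number share only that number (correlation of their deviations -0.0262), and with the replicate block 3 subunits were lower, since Itga2 lost its call. Itga1 and Itga2 rest on few counts, and for Itgae the 2 Mek1/2-tKO libraries disagreed, with 5 and 44 counts. The higher markers of other lineages in both Mek1/2-tKO libraries cannot be told apart from genotype.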
